A study of Mus musculus with 3 samples.

Results

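The genes described here encode 31 nuclear receptors, ligand-regulated transcription factors and their orphan relatives, and 4 of the coregulators that receptors recruit, 35 of the 27179 genes in the deposited count table. The members are a list of names from these gene families, with no threshold on their counts, drawn up when results of these data were already known, and the PPARs, retinoic acid receptors, other RXRs, NR4A and REV-ERB genes and the receptors for glucocorticoids and mineralocorticoids enter only as a reference list of 16 further receptors. RNA was sequenced from stromal cells of the epididymal fat (EWAT) of untreated wild-type males aged 12 weeks, strain C57B6, in a single group of 3 libraries. After digestion with Collagenase II, the sort kept live cells with CD140a, Sca1 and PDPN (podoplanin) on their surface and removed those with CD45, CD31 or Ter119, and the labels call the product adipose stem and progenitor cells (ASPC). No second depot, sex, treatment or genotype was measured. Fat was taken from 3 mice, and whether a library is 1 animal or a pool is not stated, so the spread between libraries may be partly technical.

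Most nuclear receptors share a zinc-finger DNA-binding domain and a ligand-binding domain. A receptor without its ligand often holds corepressors such as NCoR1 on chromatin, and ligand binding exchanges them for coactivators of the p160 family, which bring in histone acetyltransferases. Many receptors, among them those for thyroid hormone, vitamin D, oxysterols and bile acids, bind DNA as a heterodimer with a retinoid X receptor (RXR). In fat, receptors of this family are known for setting progenitor commitment, lipid storage and the response to steroid and thyroid hormones.

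The libraries held 32813373, 25060096 and 27275888 counts. Levels are CPM, counts scaled to library size with TMM factors, given per library or as mean ± SD over n = 3, and levels of different genes are compared per kilobase of annotated exon. Detected here means at least 1 CPM in each of the 3 libraries. A count of 0 allows a level of up to 0.0945, 0.119 and 0.107 CPM (3 counts), which covers counting error only, since reads copied by PCR are not independent molecules. All 7 stromal progenitor markers listed were detected, with Pdgfra at 1484 ± 14.5 CPM and Ly6a, which encodes Sca1, at 3254 ± 441. The sort selected for the products of Pdgfra (CD140a), Ly6a and Pdpn, so these genes are no separate evidence of cell type. Cells with CD45, CD31 or Ter119 were likewise removed by the sort. No member of the endothelial (7), mesothelial (7), mature adipocyte (7), lymphocyte (6), erythroid (4) or epididymis (4) marker lists was detected, and 1 of 8 was for macrophages (Ptprc, encoding CD45, at 5.42, 15.8 and 7.68 CPM), 1 of 6 for mural cells (Des, 9.38 ± 5.15) and 1 of 4 for Schwann cells (S100b, 4.28 ± 2.45). Summed over each list, these other markers lay between 0 and 19.7 CPM in any library, with Adipoq, C1qb, Esam, Rgs5, Lck and Sox10 at 0 counts throughout. Some markers not detected still passed 1 CPM in part of the libraries. Among them were Cd3d of lymphocytes (183, 0 and 205 counts), Krt18 of mesothelium (2, 192 and 96) and Retn of adipocytes (2, 164 and 0). These lists were therefore low but not empty.

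Of the 35 members, 16 were detected (45.7%), beside 35.0% of all genes and 43.7% of protein-coding genes, so the share was near that of coding genes in general. They were 12 of the 31 receptors (38.7%) and 4 of the 4 coregulators. Over all 35 members the median level was 1.08 CPM, against 0.108 for all genes and 1.90 for protein-coding genes. The detected members had a median of 25.1 CPM, against 30.7 CPM for all detected genes, and their median rank per kilobase was percentile 48.8 of the 9369 detected genes with a known exon length. The remaining 19 members were lower, most of them far lower. Rorb (2.11 and 2.50 CPM in libraries 1 and 3) and Nr6a1 (2.61 CPM in library 3) came near the lowest detected values. The lowest library value of any detected member was 3.31 CPM (Thrb in library 1), while 5 members had 0 counts in every library, 9 had 1 to 4 counts in all and 5 reached 1 CPM in at least 1 library but not in each. In bulk RNA of this kind, a gene carried by few cells cannot be told apart from a gene with little RNA in each cell.

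**Figure D1:**
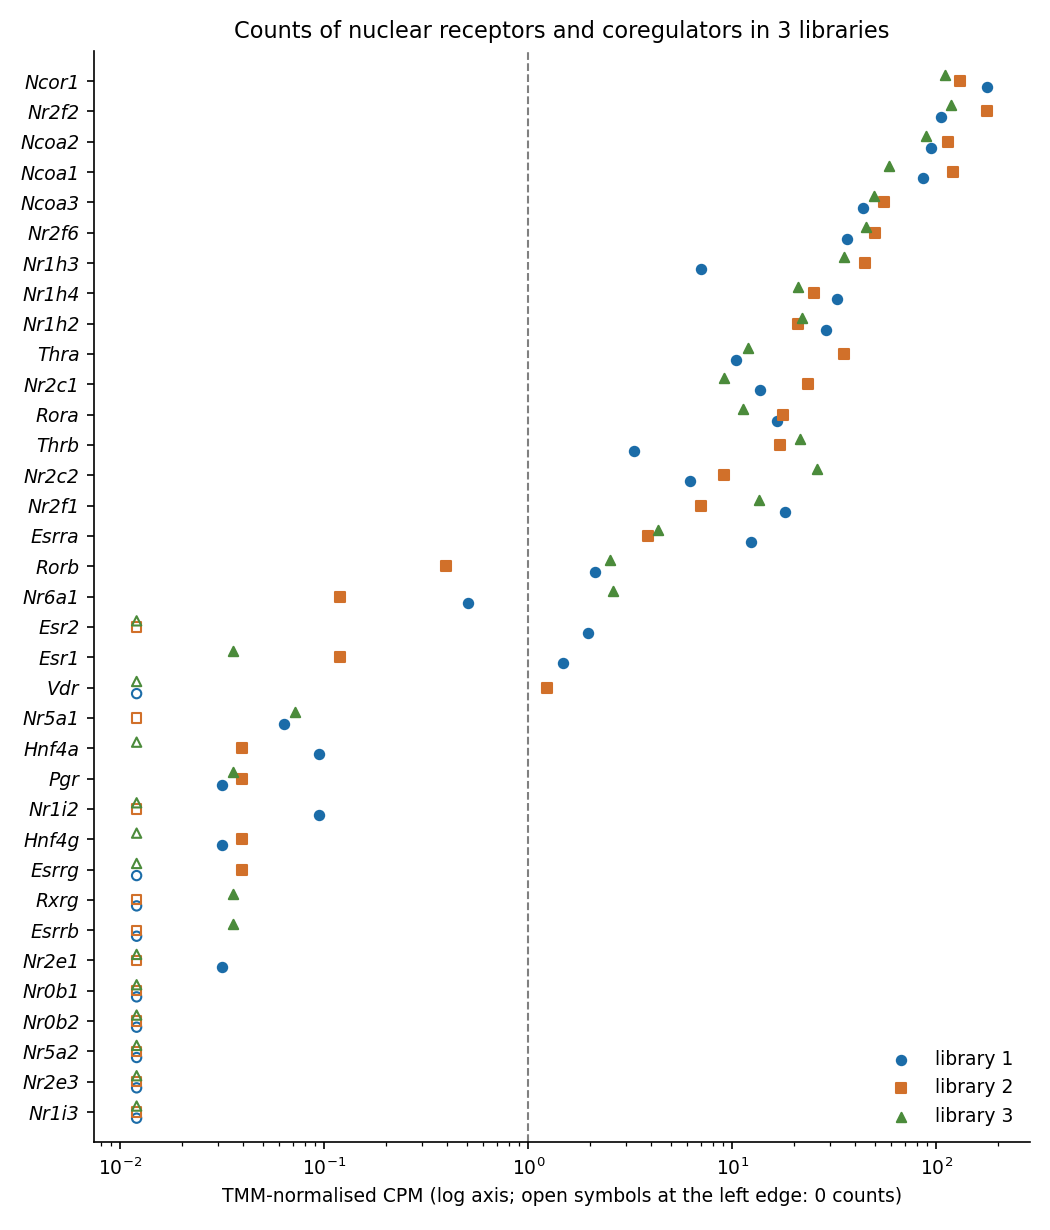
TMM-normalised CPM (horizontal, log axis) of the 35 members in libraries 1, 2 and 3, ordered by mean, with open symbols for 0 counts and a dashed line at 1 CPM. The upper 16 genes lie to the right of the line in every library, while Rorb, Nr6a1, Esr2, Esr1 and Vdr cross it and the 14 below them stay under 0.1 CPM.

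The COUP transcription factors, orphan receptors that act mostly as repressors and pattern mesenchyme, included the receptor members with the highest levels. Nr2f2 (COUP-TFII, gene 11819, chromosome 7, 70351946 to 70366746, GRCm38), a known brake on adipogenesis, had 105, 177 and 118 CPM. Its lowest and highest libraries differed 1.69-fold. Nr2f6 (gene 13864, chromosome 8, 71374118 to 71381967), the most divergent COUP factor, had 36.4, 49.9 and 45.2 CPM, and its libraries lay close together. Nr2f1 (COUP-TFI, gene 13865, chromosome 13) was lower at 18.0, 6.98 and 13.5 CPM. Per kilobase of exon, Nr2f2 and Nr2f6 stood at 15.5 ± 4.46 and 14.7 ± 2.31 CPM, and Nr2f1 at 2.52 ± 1.09. On the scale of log2(CPM per kilobase + 0.1), Nr2f2 exceeded Nr2f1 by 1.76, 3.81 and 2.33 in the 3 libraries, a mean of 2.63 ± 1.06. Nr2f1 minus Nr2f6 was -2.58 ± 0.88, negative in 3 of 3 libraries. Both differences had p = 0.25 (exact sign-flip permutation test, two-sided, Benjamini-Hochberg adjusted p = 0.42 over 10 pairs), and 0.25 is the smallest p that 3 libraries allow, so no paralogue difference described here could pass 0.05. Nr2f2 and Nr2f6 differed by 0.0505 ± 0.22 with mixed signs (p = 0.75, same exact test). That near equality depends on length: without it, in CPM alone, Nr2f2 exceeded Nr2f6 by 1.58 (log2), and per kilobase of the longest transcript by 0.65. Of the annotated exon of Nr2f6, 54.4% lies on the opposite strand from exons of Ocel1 (11, 108 and 110 counts), and 7.46% of that of Nr2f2 opposite B130024G19Rik (0, 85 and 0 counts). It is not stated whether reads were counted by strand.

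The promoter windows of Nr2f6 and Nr2f2 are printed because these neighbours in level differ in CG content, and that of Nr0b2 because this gene had 0 counts. Each holds the 250 bases before and 50 after an annotated start, from RefSeq on GRCm38.p6, written on the gene's strand with every CG in capitals. They lie at chr8:71381903-71382202 (minus strand), chr7:70366697-70366996 (minus strand) and chr4:133553126-133553425 (plus strand).
Nr2f6: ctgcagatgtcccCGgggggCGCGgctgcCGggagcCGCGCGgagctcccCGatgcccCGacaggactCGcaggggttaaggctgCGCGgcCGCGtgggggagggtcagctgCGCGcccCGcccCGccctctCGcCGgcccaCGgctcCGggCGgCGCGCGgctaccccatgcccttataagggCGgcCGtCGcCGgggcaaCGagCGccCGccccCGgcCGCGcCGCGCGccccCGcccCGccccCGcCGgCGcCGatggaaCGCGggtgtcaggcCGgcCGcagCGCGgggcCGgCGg
Nr2f2: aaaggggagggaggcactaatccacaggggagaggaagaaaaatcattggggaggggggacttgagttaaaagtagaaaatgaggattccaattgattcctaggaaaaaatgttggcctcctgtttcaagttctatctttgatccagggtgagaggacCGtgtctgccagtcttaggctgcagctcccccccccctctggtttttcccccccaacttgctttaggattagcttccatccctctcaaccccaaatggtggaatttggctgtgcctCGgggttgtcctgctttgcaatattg
Nr0b2: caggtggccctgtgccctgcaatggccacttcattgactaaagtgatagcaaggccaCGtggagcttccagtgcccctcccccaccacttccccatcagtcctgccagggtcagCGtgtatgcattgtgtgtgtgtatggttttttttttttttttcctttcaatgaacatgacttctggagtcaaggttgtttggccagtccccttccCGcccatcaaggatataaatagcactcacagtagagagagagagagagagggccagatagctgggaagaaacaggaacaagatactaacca
The Nr2f6 window held 53 CG, the Nr2f2 window 2 and the Nr0b2 window 3. A window with few CG thus belonged to the receptor member with the highest mean level as well as to a gene with 0 counts. Nr2f2 had a single window here, and windows of the same gene can differ: those of Ncor1 held 2 and 36 CG. Which start of Nr2f2 these cells use was not tested, so its window need not be the promoter in use.

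Windows of this kind were found for 30 of the 35 members, 44 in all. Across the 17 windows of the 13 detected members the median was 20 CG, with a range of 2 to 53, and across the 27 windows of the 17 other members it was 8, with a range of 2 to 22. For all genes of the count table the medians were 21 CG where the gene was detected (9685 windows) and 6 where it was not (12586 windows). The detected members thus had about the CG content of detected genes in general, and the members that were not detected had slightly more than such genes in general. These are descriptions without a test.

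**Figure D2:**
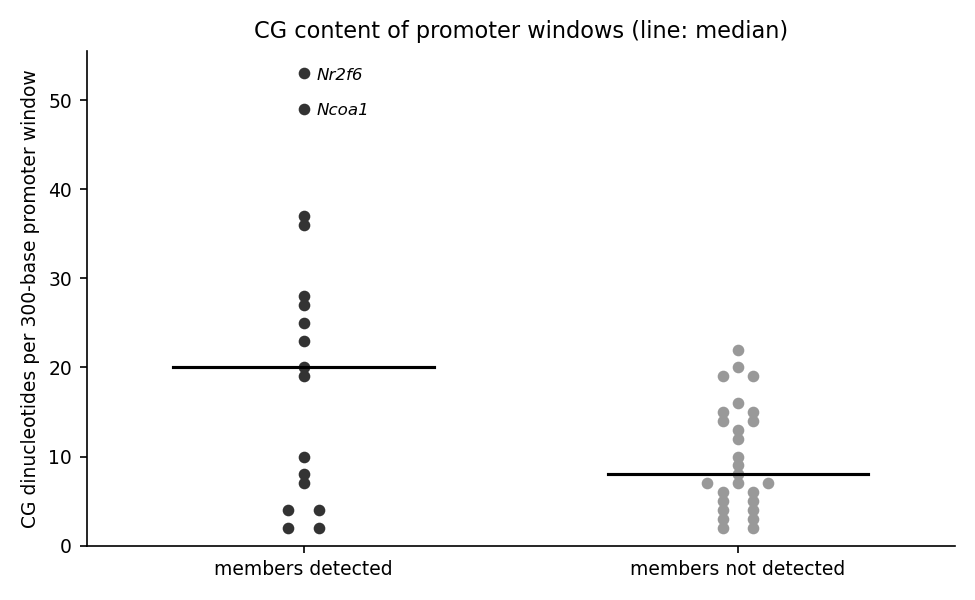
Number of CG dinucleotides per 300-base promoter window (vertical) for detected members (17 windows) and members not detected (27 windows), each point a window and each line a median. Medians are 20 and 8, the ranges overlap, and the windows of Nr2f6 (53) and Ncoa1 (49) lie highest.

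All 3 members of the oxysterol and bile acid receptor group were detected. Nr1h3 (LXRα, gene 22259, chromosome 2, 91184061 to 91202829), a sensor of oxysterols that turns on cholesterol export, had 7.03, 44.5 and 35.0 CPM. Library 1 was far below the other libraries. Its paralogue Nr1h2 (LXRβ, gene 22260, chromosome 7, 44549616 to 44553968), the widely expressed LXR, had 28.9, 20.8 and 22.0 CPM, with library 1 highest. The order of the pair therefore turned: Nr1h2 minus Nr1h3 on the log2 scale per kilobase was 1.59 in library 1 and -1.49 and -1.08 in libraries 2 and 3. The mean of -0.33 ± 1.67 has no direction (exact sign-flip permutation test, p = 1.0), and it was 0.0888 without length scaling. Of 11 LXR target genes, 7 were detected, among them the acid sphingomyelinase-like gene Smpdl3a (275.8 ± 27.6 CPM), the cholesterol exporter Abca1 (133.5 ± 49.4), the lipoprotein gene Apoe (123 ± 54.6) and the desaturase gene Scd1 (119 ± 16.6). Abcg1 and Fasn, also LXR targets, were not detected in every library, at 0.977, 3.13 and 0.0714 CPM and 3.18, 0.357 and 0.714 CPM. These targets also answer to other regulators. Cyp27a1, which makes 27-hydroxycholesterol, an LXR ligand, was the only 1 of 6 oxysterol and bile acid enzymes detected (78.6 ± 5.02 CPM).

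Nr1h4 (FXR, gene 20186, chromosome 10, 89454234 to 89533645), the bile acid receptor best known from liver and intestine, was detected at 32.7, 25.1 and 20.9 CPM. The libraries differed 1.57-fold. Per kilobase it stood at 11.4 ± 2.61 CPM, at percentile 65.8 of detected genes and in the same range as Nr1h3 (11.5 ± 7.74). Its paralogue Nr1h5 had 2 counts. None of 4 classical FXR targets was detected: the bile acid transporter genes Slc51a, Slc51b and Abcb11 had 2, 0 and 2 counts in all and the hormone gene Fgf15 had 0. Nr0b2 (SHP), a member and an FXR target in liver, had 0 counts in every library. The bile acid synthesis genes Cyp7a1 and Cyp8b1 had 0 and 2 counts. No exon of another annotated gene overlapped that of Nr1h4. Marker lists of liver or intestine were not among those set up, but the hepatocyte genes Alb and Apoa1, listed as HNF4 targets, were at 0 counts.

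The hexamer AGGTCA is the core element to which many nuclear receptors bind. It was searched with its reverse complement TGACCT in the promoter windows, and 6 of the 44 member windows held it (13.6%), beside 16.3% of all 32851 windows in the table. Among detected members it occurred in the windows of Nr1h4 and Thrb only. These are printed with the hexamer in capitals, from RefSeq on GRCm38.p6 and 5′ to 3′ on the gene's strand, at chr10:89506609-89506908 (minus strand) and chr14:17660710-17661009 (plus strand).
Nr1h4: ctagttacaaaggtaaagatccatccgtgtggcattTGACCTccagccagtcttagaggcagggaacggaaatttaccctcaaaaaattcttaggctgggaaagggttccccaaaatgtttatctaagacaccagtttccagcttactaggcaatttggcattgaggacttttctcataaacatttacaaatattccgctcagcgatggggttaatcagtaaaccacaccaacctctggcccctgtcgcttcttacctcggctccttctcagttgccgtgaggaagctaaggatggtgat
Thrb: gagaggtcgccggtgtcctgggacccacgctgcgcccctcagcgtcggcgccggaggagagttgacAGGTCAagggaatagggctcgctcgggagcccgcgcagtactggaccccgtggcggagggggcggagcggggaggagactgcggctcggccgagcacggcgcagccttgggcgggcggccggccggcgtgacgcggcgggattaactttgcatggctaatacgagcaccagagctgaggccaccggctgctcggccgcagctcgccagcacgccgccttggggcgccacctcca
The Nr1h4 window had 7 CG and the Thrb window 37. A match to these letters is a description and not a binding site.

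Of the RXR genes, whose products are the heterodimer partners of the LXRs and FXR, the member Rxrg, known from muscle and brain, had 1 count. Rxra and Rxrb of the reference list were detected, at 31.8, 28.1 and 15.1 CPM and 13.4, 9.31 and 15.5 CPM.

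Both thyroid hormone receptor genes were detected. Thra (gene 21833, chromosome 11, 98740776 to 98769006) had 10.5, 35.3 and 11.9 CPM, and library 2 stood above the others, without which the mean is 11.2 in place of 19.2 CPM. Thrb (gene 21834, chromosome 14, 17659225 to 18040097) had 3.31, 17.0 and 21.4 CPM, and library 1 stood below the others. Thra exceeded Thrb per kilobase in libraries 1 and 2 (by 2.11 and 1.69 on the log2 scale) but not in library 3 (-0.16), a mean of 1.21 ± 1.21 (exact sign-flip permutation test, p = 0.5) that became 0.61 without length scaling and 1.87 per kilobase of the longest transcript, and 0.76 without library 1 or 1.90 without library 3. Exons of Nr1d1, which runs against Thra, share 263 bases with it, 5.70% of the exon of Thra, and Nr1d1 had 39, 78 and 2 counts. The deiodinase genes Dio1 and Dio2 had 0 counts and Dio3, which inactivates the hormone, had 0, 6 and 4. Of 5 thyroid hormone targets, 3 were detected: Klf9 (206.7 ± 40.95 CPM), which glucocorticoids also induce, the malic enzyme gene Me1 (23.8 ± 6.74) and the corepressor gene Hr (6.15 ± 0.415). Thrsp had 1 count and Ucp1 had 2.

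Receptors for oestrogen and progesterone were not detected in these cells from male fat. Esr1 (ERα) had 47, 3 and 1 counts, that is 1.48, 0.119 and 0.0357 CPM. Esr2 (ERβ) had 62, 0 and 0 counts. For both genes nearly all counts were in library 1. The summed erythroid markers were 2.17 CPM there against 0 and 0, almost all of it Hbb-bs (66, 0 and 0 counts), with Hba-a1 at 0. Of the macrophage markers, Lyz2 had counts in library 1 alone (25, 0 and 0), whereas Ptprc (172, 398 and 215), Csf1r (2, 55 and 4) and Cd68 (7, 43 and 0) were not highest there, and the sum of all 8 was lowest there (6.58 CPM, against 19.7 and 7.86). Of the epididymis markers, Rnase10 had 175, 0 and 2 counts, whereas Lcn8 had 0, 184 and 0. The sum of that list was 5.58, 7.37 and 0.0714 CPM. The part of such cells in these counts was not tested. Pgr, the progesterone receptor gene and itself an oestrogen target, had 1 count in each library. Sult1e1, whose product inactivates oestrogens by sulphation, was detected at 756.6 ± 92.1 CPM, while aromatase (Cyp19a1) had 2 counts and Hsd17b1 had 0. Of 6 oestrogen receptor targets, Cxcl12 (420.1 ± 81.9 CPM), Xbp1 (213 ± 17.6), Ctsd (99.9 ± 10.3) and Ccnd1 (15.2 ± 7.38), which many other signals control, were detected. Greb1 and Tff1, classical oestrogen targets of breast cells, had 4 and 0 counts.

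Among the oestrogen-related receptors, orphans that drive mitochondrial genes, Esrra was the only 1 of 3 detected. It had 12.4, 3.84 and 4.32 CPM, highest in library 1, and 1.56 ± 1.09 CPM per kilobase. Its mean of 6.85 CPM is 4.08 without library 1. Esrrb and Esrrg had 1 count each. Of 8 ERR targets, 5 were detected, among them the ATP synthase gene Atp5b (354.0 ± 2.47 CPM), Idh3a of the citric acid cycle (61.4 ± 20.7), the fatty acid oxidation gene Acadm (58.2 ± 15.4) and Pdk4 (34.9 ± 18.7). The coactivators with which ERRα works in oxidative tissue, Ppargc1a and Ppargc1b, had 4 and 8 counts in all.

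The testicular receptors, orphan receptors that bind direct repeats, were both detected. Nr2c1 (TR2) had 13.7, 23.5 and 9.07 CPM and Nr2c2 (TR4) 6.17, 9.12 and 25.9 CPM. Library 3 was the lowest for the former and the highest for the latter, whose mean of 13.7 CPM is 7.64 without it. Per kilobase, Nr2c1 exceeded Nr2c2 by 2.58, 2.87 and 0.18 on the log2 scale, a mean of 1.88 ± 1.48 (exact sign-flip permutation test, p = 0.25). That size rests on the long annotated exon of Nr2c2, and it was 1.30 per kilobase of the longest transcript and 0.33 in CPM alone. Of the exon of Nr2c2, 30.7% lies opposite exons of Mrps25, a mitochondrial ribosomal protein gene with 1905, 2095 and 1628 counts.

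Rora, an orphan receptor of the clock and of lipid metabolism, had 16.5, 17.7 and 11.2 CPM. Its libraries lay close together, and over its exon of 13071 bases that was 1.16 ± 0.263 CPM per kilobase. Rorb, known from brain and retina, had 2.11, 0.396 and 2.50 CPM and missed detection through library 2 alone. Rora exceeded Rorb by 2.40 ± 0.94 (log2, per kilobase) with the same sign in each library (p = 0.25 by the exact sign-flip permutation test), and by 1.35 with a pseudocount of 0.5. All 4 clock genes listed as ROR targets were detected: Arntl (123 ± 19.9 CPM), Clock (71.0 ± 5.34), Cry1 (49.2 ± 19.6) and Npas2 (13.2 ± 5.44). Nr6a1, the germ cell nuclear factor gene, had 0.504, 0.119 and 2.61 CPM, above 1 in library 3 only.

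Apart from Nr1h4, receptors typical of liver, gut, kidney and steroid-making glands were not detected, and most were at or near 0. The HNF4 genes Hnf4a and Hnf4g had 4 and 2 counts in all, and 0 of 5 of their hepatic targets was detected. The xenobiotic receptors Nr1i2 (PXR) and Nr1i3 (CAR) had 3 and 0 counts, although 74.9% of the exon of Nr1i3 lies opposite Tomm40l, which had 263, 368 and 704 counts. Of 4 xenobiotic targets none was detected, and the transporter gene Abcb1a came closest at 2.24, 0.594 and 9.29 CPM. Nr5a1 (SF1), the regulator of steroidogenic glands, had 2, 0 and 2 counts and Nr5a2 (LRH1) had 0. Of 7 steroidogenic genes none was detected, with Cyp17a1 and Hsd3b1 at 0 counts. Nr0b1 (DAX1) and Nr0b2, the atypical receptors that lack a DNA-binding domain, had 0 counts, as did Nr2e3 of photoreceptors, and Nr2e1 (TLX) of neural stem cells had 1. Vdr, the vitamin D receptor gene, had 0, 31 and 0 counts, so 1.23 CPM in library 2 and none in the others. The summed macrophage markers were also highest in library 2 (6.58, 19.7 and 7.86 CPM), of which Ptprc alone gave 15.8 CPM there. Of the other 7 markers, Csf1r (2, 55 and 4 counts), Cd68 (7, 43 and 0) and Tyrobp (0, 1 and 0) were highest in library 2, whereas Lyz2, Adgre1 and C1qa had 0 counts there and C1qb had 0 in all. The part of such cells was not tested. Of 4 vitamin D targets none was detected, and Trpv6 and Spp1 were at 0 counts.

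All 4 coregulator members were among the detected genes. The corepressor gene Ncor1 (gene 20185, chromosome 11, 62315663 to 62457414), whose product tethers histone deacetylase 3 to unliganded receptors, had 176.5, 131 and 109.9 CPM. Library 1 was highest, 1.61 times library 3. The other 3 encode p160 coactivators. Ncoa1 (SRC-1, gene 17977, chromosome 12, 4247362 to 4477206) had 85.5, 121 and 58.7 CPM, Ncoa2 (TIF2, gene 17978, chromosome 1, 13139105 to 13374227) had 94.0, 113 and 89.3 CPM, and Ncoa3 (gene 17979, chromosome 2, 165992637 to 166073242) had 43.7, 55.3 and 49.6 CPM. Ncoa2 and Ncoa3 had the narrowest spreads of all detected members, each with a highest library 1.27 times the lowest.

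Per kilobase, the 3 coactivators lay close together, at 10.3 ± 3.64, 6.32 ± 0.819 and 6.28 ± 0.739 CPM for Ncoa1, Ncoa2 and Ncoa3. Ncoa1 exceeded Ncoa2 by 0.64 ± 0.35 and Ncoa3 by 0.65 ± 0.47 (log2), each with 1 sign throughout (p = 0.25 by the exact sign-flip permutation test). The first of these turned to -0.0585 per kilobase of the longest transcript and to -0.22 in CPM alone. Ncoa2 and Ncoa3 differed by 0.0095 ± 0.13 with mixed signs (exact sign-flip permutation test, p = 1.0), but by 0.87 per kilobase of the longest transcript and 0.99 in CPM alone. Of 27 other coregulators, 20 were detected (74.1%), among them the RNA helicase genes Ddx5 (1470.0 ± 215 CPM) and Ddx17 (445 ± 28.3), Ncoa7 (176.8 ± 39.4) and the acetyltransferase gene Kat2b (86.1 ± 32.1). Hdac3, the partner of NCoR1, had 21.6, 27.4 and 4.46 CPM, and Tbl1xr1 and Gps2 of the same complex had 68.0 ± 21.6 and 8.02 ± 1.34. No coregulator of that list was at 0 counts in every library, although Carm1 had 3, 0 and 4.

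**Figure D3:**
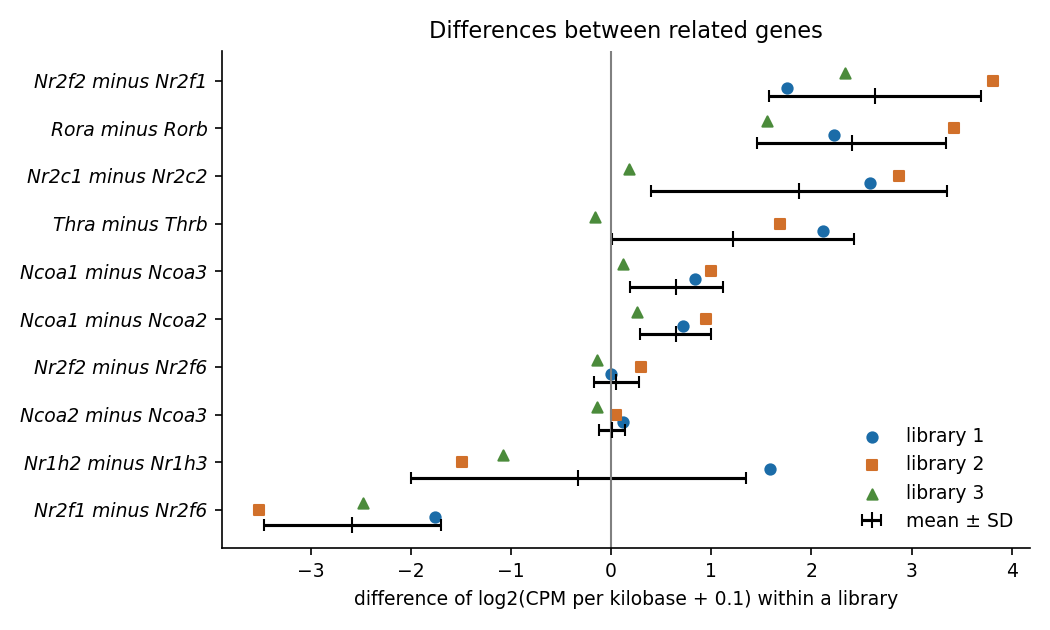
Within-library differences of log2(CPM per kilobase of exon + 0.1) for the 10 pairs of related genes that could be compared, 1 symbol per library and a bar for mean ± SD. Nr2f2 over Nr2f1 and Rora over Rorb lie right of 0 in every library, while Nr1h2 minus Nr1h3 spans -1.49 to 1.59.

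In order per kilobase, the receptor members ran from Nr2f2, Nr2f6, Nr1h3 and Nr1h4 through Nr1h2 (7.13 ± 1.30), Thra (4.16 ± 3.03), Nr2c1 (3.35 ± 1.60), Nr2f1, Thrb (1.88 ± 1.27), Esrra and Rora to Nr2c2 (0.918 ± 0.711). Ncor1 (10.9 ± 2.66) and Ncoa1 fell between Nr1h4 and Nr1h2, and Ncoa2 and Ncoa3 between Nr1h2 and Thra. No 2 neighbours in this order of 16 had library ranges that were apart, and ranges of some distant genes met too: Nr1h3 at 2.79 in library 1 lay below the highest libraries of Thrb (2.89) and Esrra (2.82). Among the 47 receptor genes of the members and the reference list, 19 were detected, and only Nr3c1 (46.2 ± 10.2 CPM per kilobase), the glucocorticoid receptor gene, and Nr4a1 (27.6 ± 3.58), an immediate-early receptor, had higher means than Nr2f2.

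**Figure D4:**
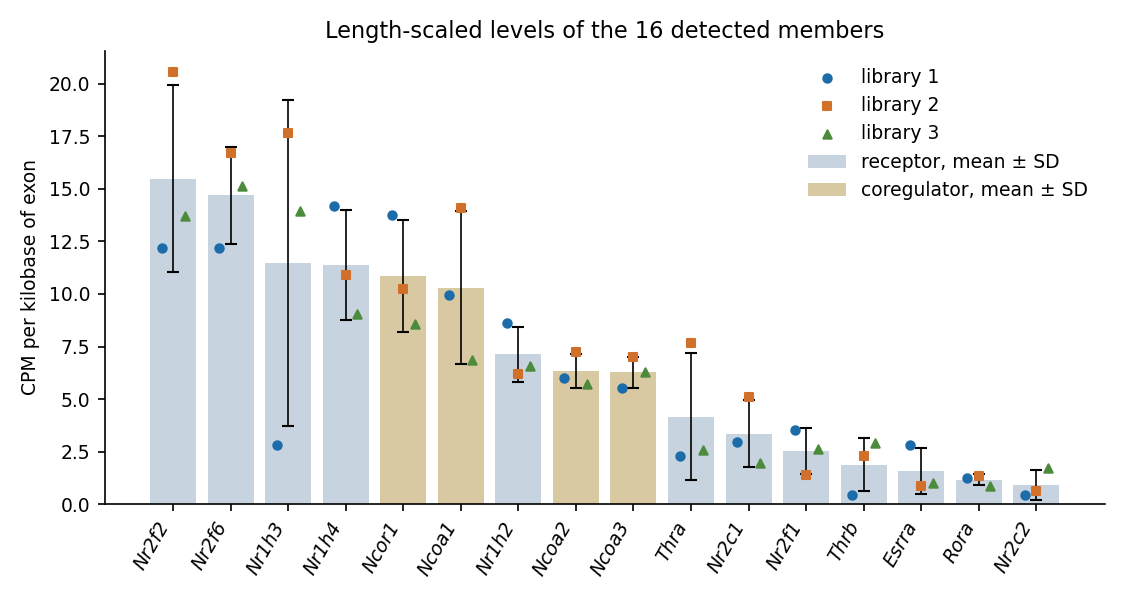
CPM per kilobase of exon (vertical) of the 16 detected members, with bars for the mean, error bars for the SD over 3 libraries and 1 symbol per library. Nr2f2 and Nr2f6 lead at 15.5 and 14.7, and the wide error bar of Nr1h3 comes from library 1 at 2.79.

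The spread between libraries was of similar size in the members and in other genes, with Nr1h3 and Thrb the widest. The highest library exceeded the lowest by a median of 1.87-fold over the 16 detected members and 1.93-fold over all detected genes, and by more than 2-fold in 8 of the 16 and in 46.7% of all detected genes. Nr1h3 spanned 6.33-fold, where the 2331 genes within 1.5-fold of its mean level had a median of 2.10-fold. Thrb spanned 6.46-fold against 2.60-fold, and Nr2c2 4.19-fold against 2.61-fold. Among the genes at their level, these spreads lay at percentile 94.9 for Nr1h3, 87.6 for Thrb and 74.1 for Nr2c2. Nr1h2, Nr1h4, Rora, Nr2f6, Ncoa2 and Ncoa3 spanned 1.27-fold to 1.58-fold, each less than the median of genes at its level.

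When each library was set against the others with edgeR's quasi-likelihood test, 0 of 13289 genes were called in any library at an adjusted p under 0.05 (percent called 0.00 in each), and so 0 of the 21 members tested. With 0 genes called in all, that count says nothing particular to the members. At an unadjusted p under 0.05, 1 member passed for library 1 and 0 for libraries 2 and 3, beside 3.78%, 4.88% and 5.24% of all genes. That member was Nr1h3, lower in library 1 by a log2 difference of -2.49 (edgeR quasi-likelihood test, adjusted p = 1.0). DESeq2's Wald test also called 0 members in each library, where it called 0.933%, 1.57% and 1.68% of all genes, with Nr1h3 at an adjusted p of 0.14 and Thrb at 0.46 in library 1. It gave no adjusted p for Esr1, Esr2, Nr6a1 and Vdr in any library, nor for Rorb in library 3, so these could not be called there. Before adjustment it put 2 members (Nr1h3 and Thrb), 0 and 0 under 0.05 for libraries 1, 2 and 3, beside 7.86%, 8.74% and 9.81% of all genes.

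**Figure D5:**
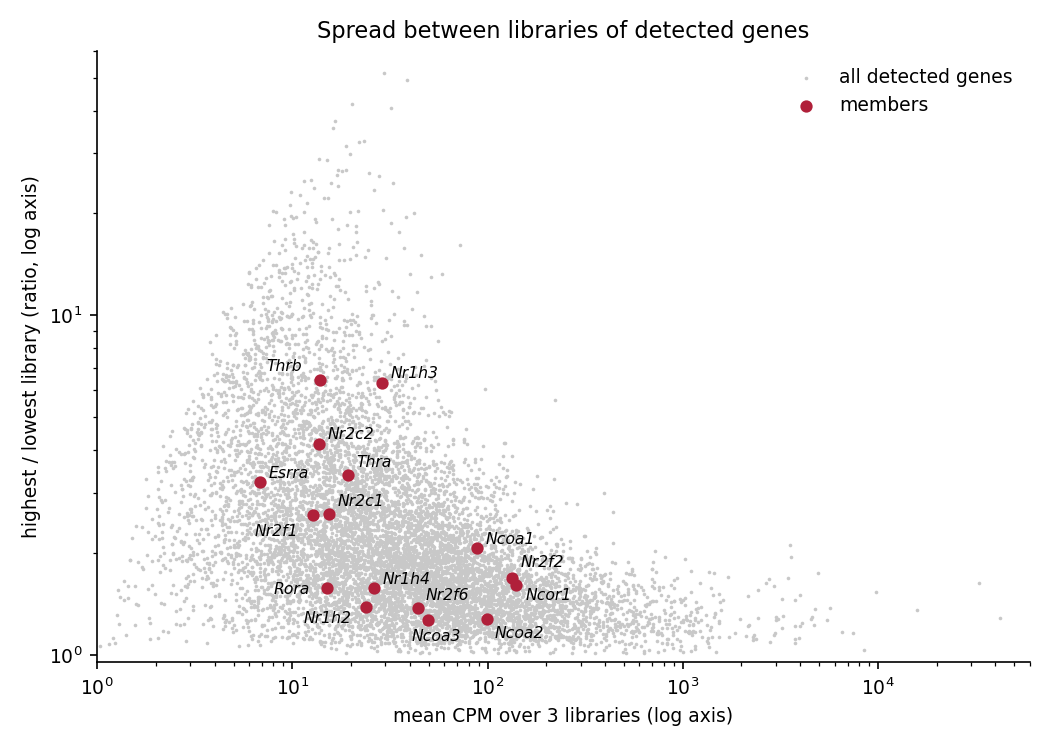
Ratio of the highest to the lowest library (vertical, log axis) against mean CPM (horizontal, log axis) for all detected genes with a RefSeq symbol (grey) and the 16 detected members (red). The members lie within the grey cloud, with Thrb (6.46) and Nr1h3 (6.33) highest and Ncoa2 and Ncoa3 (both 1.27) lowest.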

How the data were processed

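RNA of 3 libraries was prepared with the SMARTer Ultra Low Input kit V4, per the labels' protocols. CASAVA 1.8.2, STAR 2.3.0 and mm10 are named in the submitters' processing notes. How reads were assigned to genes, with which annotation and whether by strand, is not given in the sources used here. Raw read counts, 1 row for each NCBI gene ID and without scaling, were deposited by the authors. Symbols and gene positions came from RefSeq GRCm38.p6 (25275 of 27179 IDs matched, all 35 members among them) and exon lengths from GENCODE M21 (24847 genes).

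CPM used TMM library sizes (edgeR 4.0.16, R 4.3.3), and paralogues were compared as log2(CPM per kilobase of union exon + 0.1) where both had more than 3 counts in every library (10 of 15 pairs). Each library was set against the remaining pair by quasi-likelihood F-tests in edgeR (10 counts or more in at least 1 library, Benjamini-Hochberg), with DESeq2 1.42.0 as alternative. In a check on simulated data the edgeR test recovered only part of the changes put in and made some false calls. A lack of calls therefore does not show equal levels. Python 3.11.15, numpy 2.4.6, pandas 2.3.3 and matplotlib 3.10.9 were used. The list of members, the other lists and the tests were drawn up with earlier results of these data known. All members could be named, and from other lists up to 4 genes with the highest mean, genes at 0 counts and genes of a pair. The others named (such as Abcg1, Fasn, Carm1, Hdac3, Gps2, Tbl1xr1 and several low targets, enzymes and markers) were chosen after their values were seen. Of the lists, only Sts found no match. Some genes that the lists or pairs first held are not reported here. Alternatives were other thresholds, scalings, lengths, pseudocounts, filters and leaving out each library.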

Additional observations from a re-analysis of the deposited data

How the results depend on the processing

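The number of detected members, 16, was 16 at 0.5 CPM and with DESeq2 size factors, 14 at 5 CPM and 16 to 17 with 1 library left out. The count of members called between libraries was 0 in all 9 alternative fits as well, which says nothing on stability, since the edgeR test as reported called 0 of all genes. Of 70 alternative values for the 10 paralogue differences, 61 kept their sign. Nr1h2 minus Nr1h3 turned from -0.33 to 0.0888 in CPM not divided by length and to 0.0757 per kilobase of the longest transcript, and ranged from -1.28 to 0.26 with 1 library left out. Ncoa1 minus Ncoa2 turned from 0.64 to -0.22 and -0.0585 under the same length alternatives. With 1 library left out, Nr2f2 minus Nr2f6 ranged from -0.072 to 0.15 and Ncoa2 minus Ncoa3 from -0.0446 to 0.0832, and Thra minus Thrb, which kept its sign, from 0.76 to 1.90. The cause of the changes without a library was not tested, and those with length follow from the exon lengths used. With 1 library left out, mean CPM moved by over 1.5 times for Thra (19.2 to 11.2), Nr2c2 (13.7 to 7.64) and Esrra (6.85 to 4.08), and by less for the other 13 detected members. Leaving out a library in the test of 1 library against the others leaves no replicate and was not run. No paired analysis was possible because the single group leaves no other group to pair samples with, and the paralogue differences are taken within each library already. For genes at 0, the level of about 3 counts covers counting error only. A 0 in a library did not bound the gene in the others, as Esr2 (62, 0 and 0 counts) and Vdr (0, 31 and 0) show.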

Other observations

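Genes that make or break down vitamin D were unevenly spread over the libraries. Cyp27b1, which activates the vitamin, had 102, 0 and 0 counts, and Cyp2r1, which performs the preceding hydroxylation, had 199, 1 and 7, so both were found almost entirely in library 1. Vdr was found in library 2 alone (31 counts), and Cyp24a1, the breakdown enzyme that the receptor induces, had 2, 0 and 2 counts. Star, the carrier of cholesterol into mitochondria and the most abundant of the steroidogenic genes listed, had 6, 190 and 31 counts, highest in library 2, which was also the library with counts of Lcn8 (0, 184 and 0), a gene of the epididymis. Rnase10, another gene of the epididymis, had 175, 0 and 2 counts and thus lay in library 1. The part of other cell types in these counts was not tested.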
